A study of Mus musculus with 48 samples.

Results

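Adipocytes made in culture from inguinal preadipocytes were compared with adipocytes made from mouse embryonic fibroblasts (MEFs), both wild type (WT), by RNA-seq at the last time point of each differentiation course. Of the 48 libraries in the series, 6 belonged to this comparison, 3 from preadipocytes at day 9 and 3 from MEFs at day 12, identified by the origin, genotype and day in their labels. Genes were joined by identifier between the separate count tables of the 2 cell origins and normalized together. All cells came from C57BL/6 mice. The preadipocytes were taken from the inguinal white fat depot and grown on collagen-coated plates. The MEFs were isolated from whole mouse embryos, used within few passages and grown on tissue culture plates. Both received the same differentiation medium, which held insulin at 0.5 µg/ml, dexamethasone at 5 µM, IBMX at 0.5 mM, T3 at 1 nM and rosiglitazone at 1 µM. Preadipocytes stayed in it for 4 days and MEFs for 8 days, after which both spent 4 days in a maintenance medium with insulin and T3 alone. The day 9 cells were labelled brown-like adipocytes and the day 12 cells adipocytes. For comparison, the same origins were set side by side at day 0 in WT cells, before induction, and at the last time point in DKO cells, which carry deletions in both Hmgn1 and Hmgn2, the genes of 2 nucleosome-binding proteins. The DKO cells came from mice of the same strain and were grown and induced in the same way as the WT cells of their origin.

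Origin could not be told apart from several other differences. Each origin had its own count table, its own culture surface, its own time in induction medium and its own last day. The sex of the cells differed as well, as CPM show (counts per gene relative to the size of the library). Xist, the RNA that coats the inactive X chromosome of female cells, lay between 1175 and 1836 CPM of the library total in all 24 MEF libraries of the series and between 0 and 0.496 in all 24 preadipocyte libraries. The Y-linked genes Ddx3y, Eif2s3y, Kdm5d and Uty were at 0 in all 24 MEF libraries and between 24.5 and 186 CPM in the preadipocyte libraries. At the last time point Ddx3y, a Y-linked RNA helicase, was at least 1544-fold higher in preadipocyte-derived cells, taking 3 counts in a library as the floor. Of 527 X-linked genes tested, 75 (14.23%) were higher in preadipocyte-derived cells and 129 (24.48%) in MEF-derived cells, and the share higher in MEF-derived cells lay between 11.55% and 22.95% on single autosomes. Figure legends of the study call the replicates biological, but neither they nor the labels say whether the libraries of a group came from separate animals or separate cultures, so p-values measured only the spread between these libraries.

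An adipocyte is recognized by a program that the nuclear receptor PPARG switches on together with C/EBP factors: lipid droplet proteins, lipases, fatty acid uptake and hormones such as adiponectin. Brown and beige adipocytes add many mitochondria, high fatty acid oxidation and UCP1, the protein that lets the respiratory chain release heat. White adipose preadipocytes are committed, postnatal cells of a single depot, whereas MEFs are a mixed fetal population that holds cells of many body regions and keeps growth programs of the embryo.

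Library totals lay between 19809356 and 24021937 estimated counts in preadipocyte-derived cells and between 22247073 and 29845097 in MEF-derived cells. The 10 most abundant genes took 12.1 to 12.5% of the counts in the first group and 7.83 to 7.94% in the second. Preadipocyte replicate 1 stood apart from replicates 2 and 3. Its interferon-stimulated genes and contractile genes were high and its macrophage genes low, as given beside those results, and the values without it are given there. Elsewhere levels are CPM of the library size after scaling, and are not corrected for gene length. A gene was called different where the groups differed 1.5-fold or more with an adjusted p under 0.05, and log2 fold changes are positive where preadipocyte-derived cells were higher.

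Adipocyte genes were expressed at high levels from both origins, and higher from preadipocytes. Of 15406 genes tested, 2400 (15.6%) were called higher in preadipocyte-derived cells and 2616 (17.0%) in MEF-derived cells. With library size alone as the scale the counts were 1757 and 3430, and the median of all genes moved by −0.17 on the log2 scale, so the share of calls higher in preadipocyte-derived cells went from 47.8% to 33.9%. Of 25 general adipocyte genes tested, 17 were called higher in preadipocyte-derived cells and 1 lower, with a median log2 fold change of 0.72 beside 0.0006 over all genes. Pparg, the master regulator, lay at 151, 149 and 151 CPM in the 3 preadipocyte-derived libraries and at 61.2, 56.7 and 60.7 CPM in the 3 MEF-derived libraries. It was 2.53-fold higher in preadipocyte-derived cells (log2 fold change 1.34 ± 0.04 SE, n = 3 per group, adjusted p = 1.1e-09 by edgeR), and the groups did not overlap. Fabp4, a fatty acid carrier, lay at 13960, 14220 and 13980 CPM against 5722, 5782 and 6108 CPM (log2 fold change 1.26 ± 0.04). Adipoq, which encodes adiponectin, lay at 1360, 1373 and 1313 CPM against 699, 688 and 697 CPM (0.96 ± 0.04). Both genes were above every MEF-derived library in all 3 preadipocyte-derived libraries. The complement protease Cfd, or adipsin (1.15 ± 0.06), and the droplet coat gene Plin1 (0.75 ± 0.04) were also called.

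Other genes of the same program lay closer together. Cebpa, a partner of PPARG, had log2 fold change 0.53 ± 0.04, Lpl, the lipoprotein lipase, 0.29 ± 0.05 and Mgst1 0.05 ± 0.04, and none of them was called. Lep, the satiety hormone of mature white adipocytes, was the gene called in the other direction, at 0, 0.264 and 0.0487 CPM in preadipocyte-derived libraries against 0.807, 0.693 and 0.994 CPM in MEF-derived libraries, so it was barely expressed from either origin. In RNA from whole cultures, fewer adipocytes and less adipocyte RNA per cell cannot be told apart. When all 48 libraries shared 1 estimate of the spread, the fold changes of these genes were close to those above, yet only Pparg, Lpin1 and Lep of the 25 were called. With library size alone 10 of the 25 were called higher in preadipocyte-derived cells.

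**Figure D1:**
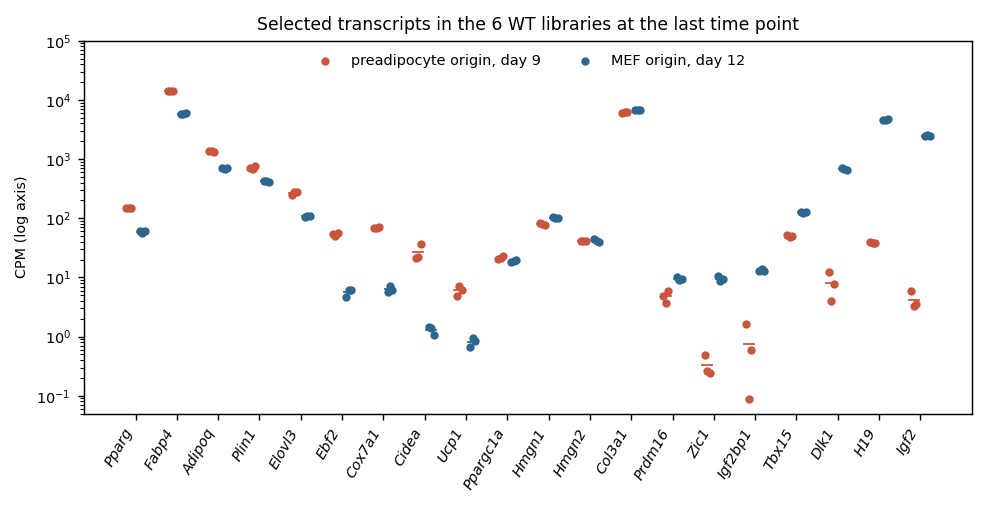
Level of selected genes in each of the 6 WT libraries (CPM, log scale; one point per library, red for preadipocyte origin at day 9 and blue for MEF origin at day 12; short lines are means). Fabp4 lies between 13960 and 14220 CPM against 5722 and 6108 CPM, and Igf2 between 3.26 and 5.79 CPM against 2458 and 2503 CPM.

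Brown adipocyte genes were called more often in preadipocyte-derived cells. Of 22 tested, 12 were called higher in preadipocyte-derived cells and 4 in MEF-derived cells (median log2 fold change 1.08). Over all genes the shares were 15.6% and 17.0%, so the calls from MEFs lay near the share of all genes. Ucp1 lay at 4.93, 7.09 and 6.14 CPM against 0.68, 0.946 and 0.841 CPM (2.86 ± 0.21 on the log2 scale, adjusted p = 5.4e-07), and was thus low in all 6 libraries. Cidea, a lipid droplet protein of brown fat, lay at 21.2, 22.1 and 36.1 CPM against 1.44, 1.39 and 1.07 CPM (4.34 ± 0.30). Cox7a1, the heart and brown fat form of a cytochrome c oxidase subunit, lay at 69.2, 68.9 and 70.9 CPM against 5.69, 7.03 and 6.19 CPM (3.46 ± 0.07). All 3 genes were higher in each preadipocyte-derived library than in any MEF-derived library. Ebf2, a factor that marks brown and beige precursors, was at 49.7 to 57.1 CPM against 4.76 to 6.05 CPM (3.24 ± 0.09), Elovl3, a fatty acid elongase, at 248 to 283 CPM against 104 to 110 CPM (1.32 ± 0.05), and Ppara, a receptor that drives fatty acid oxidation, at 24.3 to 29 CPM against 9.52 to 12.3 CPM (1.24 ± 0.11).

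The brown genes higher in MEF-derived cells were Zic1, Prdm16, Dio2 and Acot11. Zic1, a transcription factor found in classical interscapular brown fat, lay at 0.482, 0.264 and 0.243 CPM against 10.6, 8.64 and 9.48 CPM (log2 fold change −4.86 ± 0.22). Prdm16, a coregulator of the brown program, lay at 4.88, 3.7 and 5.79 CPM against 10.2, 9.14 and 9.37 CPM (−1.0 ± 0.15), and Dio2, the enzyme that activates thyroid hormone, at 1.29 to 1.8 CPM against 5.86 to 6.81 CPM (−2.10 ± 0.17). Ppargc1a, the coactivator of mitochondrial genes, was not called, at 20.7 to 23 CPM against 18.1 to 19.4 CPM (0.20 ± 0.07), while the related Ppargc1b was 1.31 ± 0.12 higher on the log2 scale in preadipocyte-derived cells.

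Among 14 genes used to mark beige cells or white depots, 8 were called higher in preadipocyte-derived cells and 2 in MEF-derived cells. Slc36a2, an amino acid carrier, lay at 273, 260 and 268 CPM against 106, 113 and 105 CPM (1.3 ± 0.04). Tbx15, a T-box factor of some fat depots, had the opposite direction, at 51.3, 47.7 and 49.2 CPM against 129, 124 and 128 CPM (−1.36 ± 0.05, adjusted p = 1.2e-09). Nnat was the other gene higher in MEF-derived cells. With 1 spread over all 48 libraries 4 genes of this list were called in each direction. Genes of adrenergic and cyclic AMP signalling were called in equal number in each direction, 4 and 4 of 23, near the 15.6% and 17.0% of all genes. The beta-3 adrenergic receptor gene Adrb3 lay at 47.3, 50.5 and 50.5 CPM against 48.4, 44.9 and 44 CPM (0.11 ± 0.06, not called). Of 10 genes of heat production without UCP1, such as the creatine and calcium cycles, 2 were higher in preadipocyte-derived cells, Alpl and Adra1a. Ryr2 was higher in MEF-derived cells, and all were at low levels. These counts too stand beside 15.6% and 17.0% of all genes. With library size alone 1 was higher from preadipocytes and 4 from MEFs, and with 1 spread over all 48 libraries no gene of the list was called by edgeR.

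The respiratory chain was higher in preadipocyte-derived cells in nearly every subunit measured. Of 82 nuclear genes for subunits of oxidative phosphorylation (OXPHOS), 76 were called higher and 0 lower by edgeR, with a median log2 fold change of 1.05, and the lowest of the 82 values was 0.23. The groups did not overlap for any of the 82, beside 68.7% of all genes tested. Summed over the list, the level was 18760, 18830 and 19310 CPM against 9498, 9446 and 9544 CPM. The 6 genes not called were Atp5g1, Atp5g3, Atp5j, Atp5s, Cox6b2 and Ndufa11. Examples from the complexes were Ndufs5 of complex I, at 93.5, 95 and 101 CPM against 32.2, 36.3 and 33.9 CPM (1.5 ± 0.06), and Sdhb of complex II, at 203, 203 and 210 CPM against 86.4, 88.9 and 88.9 CPM (1.22 ± 0.04). Uqcrc1 of complex III had 1.01 ± 0.05, Cox6a1 of complex IV, at 284, 271 and 306 CPM against 105, 106 and 99.5 CPM, had 1.47 ± 0.05, and Atp5a1 of the ATP synthase had 0.83 ± 0.04. With library size alone 71 of the 82 were called, and with 1 spread over 48 libraries 75 were.

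Of the 13 mitochondrially encoded subunits, 11 were called higher in preadipocyte-derived cells, with a median of 0.81, and mt-Cytb (0.57 ± 0.04) and mt-Nd3 (0.49 ± 0.18) were not. Under quantile normalization 7 of the 13 were called and with library size alone 8. All mitochondrial genes took 7.18 to 7.72% of the counts in preadipocyte-derived libraries and 4.13 to 4.29% in MEF-derived libraries. These values are uncertain because near-identical nuclear copies such as Gm28661 shared the reads, and mt-Co1 changed sign under quantile normalization, from 1.17 to −0.24.

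Promoters of OXPHOS genes often hold the palindromic core that NRF1, a regulator of respiratory genes, is known to bind. The 250 bases before the gene start (RefSeq, GRCm38.p6) were searched on both strands for GCGCANGCG, and 65 of the 82 genes matched an entry. The core was present for 14 of the 65 (21.5%), for 1330 of 10999 tested genes with an entry (12.1%) and for 5.86% of all 27025 genes in the table. A match is a description of the letters and shows no binding. Shown are 60-base stretches, 5′ to 3′ on the strand of the gene, around the core in capitals, for the 3 members with a match and the largest log2 fold changes. They lie at chr4:123718251-123718310 for Ndufs5, chr5:115349087-115349146 for Cox6a1 and chr6:24527683-24527742 for Ndufa5, all on the minus strand, with the core beginning 98, 162 and 190 bases before the gene start.
Ndufs5: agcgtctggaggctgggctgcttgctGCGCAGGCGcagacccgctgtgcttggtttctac
Cox6a1: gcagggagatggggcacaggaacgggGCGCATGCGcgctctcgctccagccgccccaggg
Ndufa5: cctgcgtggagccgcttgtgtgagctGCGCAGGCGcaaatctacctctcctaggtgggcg

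Fuel pathways that feed the chain were higher with it. Of 22 TCA cycle genes, 21 were called higher in preadipocyte-derived cells (median 0.98), and Idh2 (0.54 ± 0.05) was the gene not called. Of 26 fatty acid oxidation genes, 19 were called higher and Cpt1a lower (median 0.95). The 2 forms of carnitine palmitoyltransferase 1, which admits fatty acids to mitochondria, differed in opposite directions. Cpt1b, the muscle and brown fat form, lay at 112, 107 and 117 CPM against 31.3, 29.3 and 30.8 CPM (1.88 ± 0.05), whereas Cpt1a, the liver form, lay at 34.1, 38.6 and 40.1 CPM against 76.1, 78.1 and 72.8 CPM (−1.01 ± 0.06).

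Glycolysis was higher as well, with 18 of 20 genes called in preadipocyte-derived cells and a median of 1.19. Pgk1, phosphoglycerate kinase, lay at 1903, 1758 and 1805 CPM against 473, 441 and 468 CPM (1.98 ± 0.05), and Slc16a3, a lactate exporter, at 78.9, 69.7 and 70.4 CPM against 10.2, 10.8 and 9.67 CPM (2.83 ± 0.07). Both ranges lay apart, as they did for each of the 20 genes, beside 68.7% of all genes tested. Eno2, the neuronal enolase, was called lower (−0.66 ± 0.14), a call lost without preadipocyte replicate 3 (−0.53), and Pfkm was not called.

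Lipid synthesis differed less as a list. Of 22 genes for fatty acid and triglyceride synthesis, 7 were called higher in preadipocyte-derived cells and Fads2, a fatty acid desaturase, was called lower (−1.01 ± 0.07). Scd1, stearoyl-CoA desaturase, was the most abundant transcript from preadipocytes, at 35850, 36020 and 40180 CPM against 11910, 11850 and 12000 CPM (1.65 ± 0.05), and its difference was 0.24 under quantile normalization. Fasn, fatty acid synthase, was at 4461 to 5145 CPM against 3777 to 3821 CPM (0.31 ± 0.06, not called). In cholesterol synthesis, 2 of 23 genes were called higher from preadipocytes, Insig1 and Pmvk, and 4 lower, beside 15.6% and 17.0% of all genes. Insig1, whose product holds back the sterol-responsive factor SREBP, lay at 544, 600 and 570 CPM against 230, 222 and 230 CPM (1.33 ± 0.05). Srebf2 (−0.67 ± 0.05), the gene of such a factor, and Sqle (−0.82 ± 0.06), an epoxidase of the pathway, were among the lower ones.

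Secreted factors of fat differed widely. Of 25 adipokine genes tested, 17 were called higher in preadipocyte-derived cells and 5 in MEF-derived cells (median 1.10). Rbp4, the retinol carrier, lay at 278, 260 and 318 CPM against 32.2, 29.9 and 30.4 CPM (3.21 ± 0.08), and Nampt, an enzyme of NAD synthesis, at 597, 574 and 569 CPM against 166, 166 and 167 CPM (1.80 ± 0.04). Serpina3n, a protease inhibitor, reached 5028, 4630 and 4447 CPM against 975, 982 and 997 CPM (2.26 ± 0.05). The genes in the other direction were Lep, Apoe, Apoc1, Ccl2 and Cxcl12. Apoe, the apolipoprotein, lay at 187, 382 and 338 CPM against 1323, 1342 and 1302 CPM (−2.13 ± 0.30), with preadipocyte replicate 1 lowest.

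**Figure D2:**
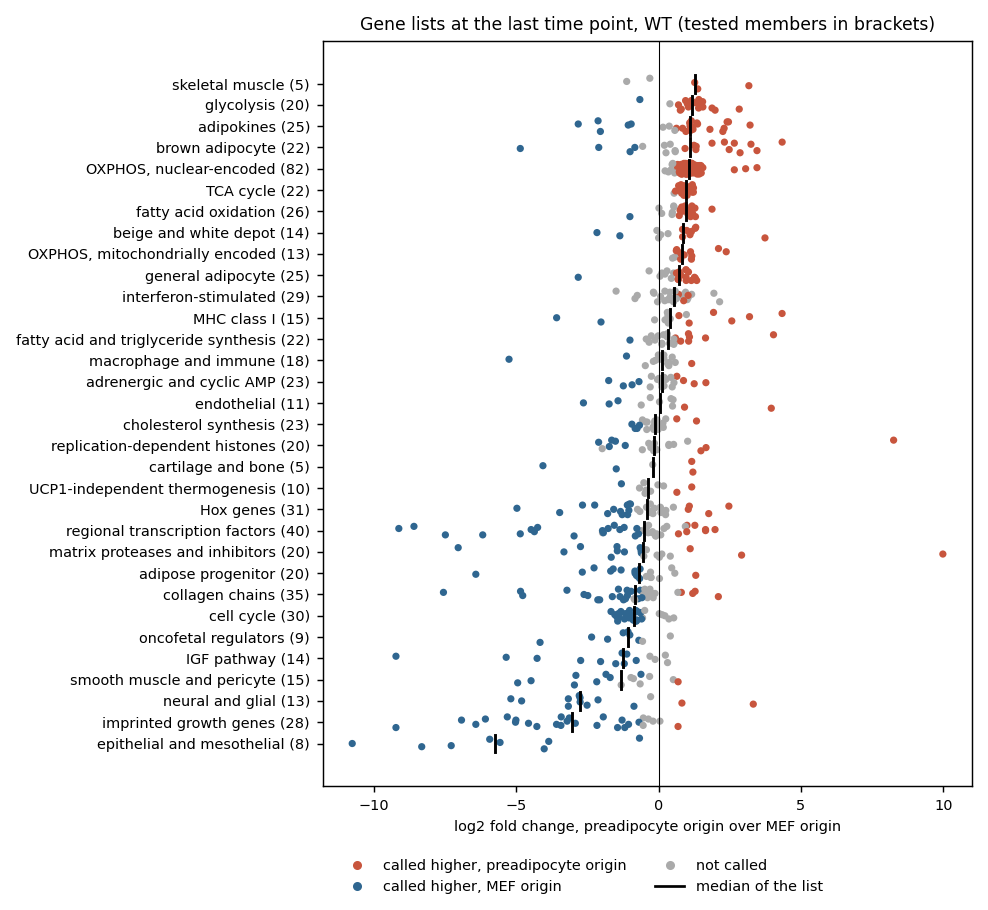
Log2 fold change of every tested member of each gene list, preadipocyte origin over MEF origin (red, called higher from preadipocytes; blue, called higher from MEFs; grey, not called; black bar, list median). OXPHOS medians lie at 1.05 for nuclear and 0.81 for mitochondrial genes, and that of the imprinted growth genes at −3.03.

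Imprinted genes that govern fetal growth were higher in MEF-derived cells by wide margins. Of 28 tested, 22 were called higher from MEFs and 1 from preadipocytes, with a median log2 fold change of −3.03. Igf2, the fetal insulin-like growth factor, lay at 5.79, 3.26 and 3.55 CPM in preadipocyte-derived libraries and at 2458, 2503 and 2496 CPM in MEF-derived libraries (−9.23 ± 0.19, adjusted p = 1.8e-07). Its neighbour H19, a maternally expressed noncoding RNA, lay at 39.1, 37.6 and 38 CPM against 4623, 4629 and 4689 CPM (−6.92 ± 0.05). Dlk1, a membrane protein that restrains adipogenesis, lay at 12.4, 4.05 and 7.84 CPM against 703, 689 and 653 CPM (−6.42 ± 0.38). For all 3 genes every MEF-derived library was above every preadipocyte-derived library. Plagl1, a zinc finger factor, was at 5.11 to 8.38 CPM against 471 to 487 CPM (−6.09 ± 0.16), Mest at 2.77 to 5.25 CPM against 115 to 120 CPM (−5.03 ± 0.19) and the cell cycle inhibitor Cdkn1c at 7.31 to 12 CPM against 221 to 240 CPM (−4.57 ± 0.16). Maternally expressed genes (H19, Cdkn1c, Meg3) and paternally expressed ones (Igf2, Dlk1, Peg3) were both among those called higher from MEFs. Peg10 was the gene called the other way (0.68 ± 0.18), and that call was lost without preadipocyte replicate 2 (0.71), without preadipocyte replicate 3 (0.51) and without MEF replicate 3 (0.72).

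The wider IGF pathway had the same direction, 10 of 14 genes higher in MEF-derived cells and 0 higher in preadipocyte-derived cells by edgeR. Igf1 lay at 76.4, 80.2 and 76 CPM against 211, 226 and 224 CPM (−1.51 ± 0.05), the receptor that clears IGF2, Igf2r, at 168 to 181 CPM against 409 to 432 CPM (−1.28 ± 0.04), and the binding protein gene Igfbp5 at 37.8, 41.8 and 33.7 CPM against 701, 738 and 747 CPM (−4.27 ± 0.08). The insulin receptor gene Insr was not called (−0.12 ± 0.06). Of 9 oncofetal regulators, a class known for its activity in fetal tissue, 7 were higher in MEF-derived cells and 0 in preadipocyte-derived cells. At day 0, of 10 tested, 5 were higher in MEFs and 2 in preadipocytes. The RNA-binding protein gene Igf2bp3 lay at 12, 8.54 and 9.59 CPM against 34.5, 34.9 and 34.3 CPM (−1.79 ± 0.10) and the chromatin protein gene Hmga2 at 21.2, 12.6 and 12 CPM against 30.2, 32.4 and 33.3 CPM (−1.08 ± 0.23). Before induction, at day 0, Hmga2 was higher in preadipocytes, at 120 to 149 CPM against 63.7 to 80.7 CPM (0.85 ± 0.11). Its difference between origins changed by −1.87 ± 0.26 from day 0 to the last time point. Hmga1 (0.41 ± 0.05) and Ptn (−0.57 ± 0.51) were not called.

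Progenitor and matrix genes were also more abundant from MEFs. Of 20 adipose progenitor genes, 12 were called higher in MEF-derived cells and Ly6a, or Sca-1, higher in preadipocyte-derived cells (median −0.70). Ly6a lay at 840, 647 and 607 CPM against 279, 285 and 284 CPM (1.3 ± 0.13). Pdgfra, the receptor used to isolate such progenitors, lay at 410, 313 and 310 CPM against 547, 548 and 542 CPM (−0.67 ± 0.11), and Cd34 at 23, 15.1 and 17.9 CPM against 88.5, 89.8 and 90.1 CPM (−2.27 ± 0.14). Of 35 collagen chain genes, 19 were higher from MEFs and 4 from preadipocytes. Col5a3 had the largest difference towards preadipocyte-derived cells, at 476, 410 and 439 CPM against 102, 104 and 104 CPM (2.10 ± 0.05), followed by Col20a1 (1.28 ± 0.20) and Col15a1 (1.20 ± 0.09). Col11a2 was the fourth (0.80 ± 0.27), and leaving out either preadipocyte replicate 1 (0.49) or replicate 2 (0.87), or MEF replicate 2 (0.80) or 3 (0.67), ended its call. The main fibrillar chains lay closer together, with Col1a2 at −0.71 ± 0.05, Col1a1 at −0.53 ± 0.07 and Col3a1 at −0.13 ± 0.04, of which only Col1a2 was called. Col1a1 was called higher from MEFs with library size alone (−0.70), under quantile normalization (−0.76) and without preadipocyte replicate 3 (−0.62). Col8a1 showed the spread of preadipocyte replicate 1, at 23.5 CPM there and 1.85 and 1.66 CPM in replicates 2 and 3, against 243 to 251 CPM from MEFs (−4.85 ± 0.97), and its call was lost with the replicate number as a block (−5.21, adjusted p = 0.062 by edgeR).

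Among 20 matrix proteases and their inhibitors, 10 were higher in MEF-derived cells and 3 in preadipocyte-derived cells, Mmp9, Timp1 and Mmp23. Mmp9, gelatinase B, lay at 721, 1323 and 962 CPM against 0.935, 0.851 and 1.19 CPM, the largest difference towards preadipocyte-derived cells outside the Y chromosome among genes with a mean of at least 50 CPM in either group (9.99 ± 0.42, adjusted p = 4.3e-05). Timp1, an inhibitor of such proteases, lay at 305, 266 and 274 CPM against 38.6, 37.3 and 36.1 CPM (2.91 ± 0.06). The collagenase gene Mmp13 had the opposite direction, at 0.0536, 0.308 and 0.292 CPM against 30.7, 30.7 and 29.9 CPM (−7.04 ± 0.19), as did Mmp2, gelatinase A, at 300, 280 and 299 CPM against 937, 917 and 932 CPM (−1.67 ± 0.04). The next largest by the same measure were the integrin gene Itgad, at 45.8 to 61.8 CPM against 0.191 to 0.63 CPM, and Acp5, the acid phosphatase of osteoclasts and some macrophages, at 195 to 331 CPM against 2.85 to 3.33 CPM.

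Positional identity genes differed between the 2 origins at the last time point. Hox genes are arrayed in 4 clusters, and which of them a fibroblast keeps active follows its place along the body and limb. Of 31 tested, 13 were called higher in MEF-derived cells and 4 in preadipocyte-derived cells, beside 17.0% and 15.6% of all genes. The 4 were Hoxa9, Hoxc10, Hoxc11 and Hoxc13, all from the posterior part of their cluster. Hoxc10 lay at 20.4, 20.3 and 23.9 CPM against 10.6, 11.2 and 9.56 CPM (1.04 ± 0.09), and Hoxa9 at 23.7, 22.1 and 19.9 CPM against 10.3, 10.9 and 9.79 CPM (1.08 ± 0.09). All 5 HoxD genes tested were higher from MEFs, Hoxd8 at 8.04, 7.53 and 7.65 CPM against 23.5, 22.8 and 23.1 CPM (−1.58 ± 0.08) and Hoxd4 at 0.965, 1.19 and 0.876 CPM against 6.93, 6.68 and 5.93 CPM (−2.67 ± 0.18). Of the HoxB genes 4 were called, all higher from MEFs, led by Hoxb9 at 3.91, 3.08 and 4.87 CPM against 19.5, 17.8 and 18.9 CPM (−2.25 ± 0.14). The balance was another at day 0, where 11 of 32 Hox genes were higher in preadipocytes and 8 in MEFs (median 0.02). Hoxa9 was not called there (−0.08 ± 0.20). From day 0 to the last time point the difference was called as moving towards MEFs for 14 of 31 and towards preadipocytes for 2.

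**Figure D3:**
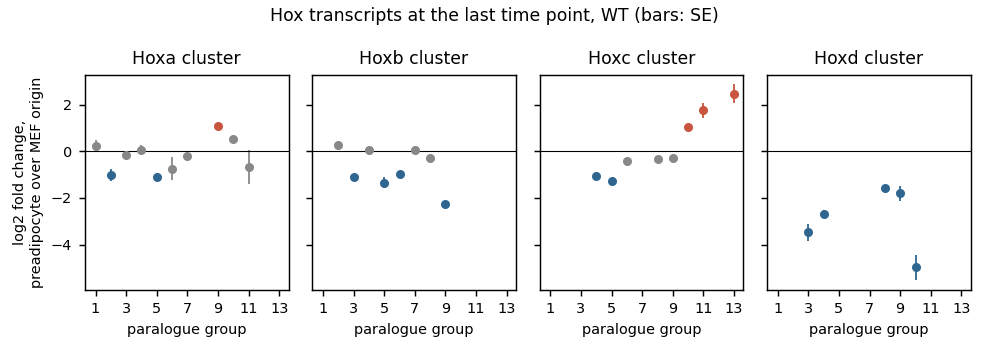
Log2 fold change (preadipocyte origin over MEF origin, bars are SE) of each tested Hox gene by cluster and paralogue group (red, called higher from preadipocytes; blue, called higher from MEFs; grey, not called). The HoxD genes lie between −4.98 and −1.58, and Hoxc10, Hoxc11 and Hoxc13 between 1.04 and 2.47.

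Of 40 other regional transcription factors, 18 were higher in MEF-derived cells and 7 in preadipocyte-derived cells, the latter near the 15.6% of all genes. Shox2 (0.99 ± 0.08), Tbx5 (1.00 ± 0.19) and Tbx18 (0.70 ± 0.07), factors of limb and body wall mesenchyme, were among those higher from preadipocytes. The Tbx18 call was lost with library size alone (0.53). Pax1, a factor of the ventral somite, lay at 0.268, 0.132 and 0 CPM against 11.2, 9.11 and 9.02 CPM (−6.18 ± 0.36), and Prrx2, a limb mesenchyme factor, at 5.55 to 6.86 CPM against 19.6 to 22.3 CPM (−1.77 ± 0.10). Foxd1 and Zic2 had no counts in any of the 3 preadipocyte-derived libraries and were at least 20-fold and 13.7-fold higher in MEF-derived cells. At day 0, 16 of 43 regional factors were higher in preadipocytes and 12 in MEFs. The later change of the difference was called towards MEFs for 17 of 40 and towards preadipocytes for 3.

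Cell cycle transcripts were higher in MEF-derived cells for 23 of 30 genes and called in no gene the other way by edgeR (median −0.85). Mki67, a marker of cycling cells, lay at 11.5, 11 and 10.6 CPM against 29.4, 29.2 and 31 CPM (−1.44 ± 0.07), and the replication helicase gene Mcm5 at 3.06, 3.52 and 3.85 CPM against 8.88, 8.95 and 9.75 CPM (−1.40 ± 0.13). Pcna, the sliding clamp of replication, was not called (0.02 ± 0.05). Of 20 replication-dependent histone genes that passed the filter, 3 were higher from preadipocytes and 5 from MEFs, beside 15.6% and 17.0% of all genes.

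Markers of some other cell types differed between origins as lists and those of others did not. Their part in the results above was not tested. Macrophage genes were abundant in both cultures, with the sum of the list at 4478, 8907 and 7389 CPM from preadipocytes and 6283, 6265 and 6310 CPM from MEFs (exact permutation test, two-sided p = 0.7; 0.1 is the smallest p that 3 against 3 allows). Lyz2 lay at 1969, 4356 and 3566 CPM against 2620, 2638 and 2688 CPM, and the CSF1 receptor gene Csf1r at 177, 324 and 252 CPM against 251, 245 and 243 CPM, with overlap in both and preadipocyte replicate 1 lowest. Of 18 macrophage and immune genes, Aif1 was called higher from preadipocytes (1.16 ± 0.26) and Cx3cr1 (−5.26 ± 0.34) and Mpeg1 (−1.13 ± 0.15) from MEFs. The list median was 0.12 and turned to −0.05 with library size alone. Without preadipocyte replicate 1 the median was 0.29, with 3 genes called higher from preadipocytes and 2 from MEFs.

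Neural and glial genes were higher from MEFs in 10 of 13 cases, with the list sum at 35.7 to 41.2 CPM against 212 to 217 CPM. Sox10, the factor of neural crest and Schwann cells, lay at 4.88, 3.74 and 4.09 CPM against 29.1, 29.4 and 28.9 CPM (−2.79 ± 0.10), and the Schwann cell precursor cadherin gene Cdh19 at 6.7, 6.51 and 6.33 CPM against 57.5, 57.8 and 60.7 CPM (−3.17 ± 0.06). Stmn2 was among those called the other way, under 3 CPM in every library. All 8 epithelial and mesothelial genes tested were higher from MEFs, with a list sum of 6.38 to 8.62 CPM against 117 to 121 CPM. Msln, mesothelin, lay at 1.34, 0.836 and 2.24 CPM against 70.2, 67.1 and 71.1 CPM (−5.57 ± 0.19), and Upk1b and Krt14 had no counts from preadipocytes. Upk1b was at least 62.2-fold higher in MEF-derived cells.

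Smooth muscle and pericyte genes were higher from MEFs in 8 of 15 cases. Acta2, smooth muscle actin, lay at 128, 24.5 and 33.2 CPM against 155, 151 and 152 CPM (−1.32 ± 0.72) and was not called, with preadipocyte replicate 1 far above replicates 2 and 3. Without that replicate 12 of the 15 were called higher from MEFs. Cspg4, or NG2, was called higher from preadipocytes (0.68 ± 0.18), and the call was lost without preadipocyte replicate 3 (0.44), MEF replicate 1 (0.67) or MEF replicate 3 (0.66). Of 11 endothelial genes, 2 were higher from preadipocytes (Pecam1 and Ramp2) and 3 from MEFs (Flt1, Cdh5 and Erg), beside 15.6% and 17.0% of all genes. Flt1, a VEGF receptor, lay at 35.2, 19.6 and 25.7 CPM against 164, 168 and 167 CPM (−2.64 ± 0.22). The balance of the endothelial list turned to 4 and 3 under quantile normalization, 4 and 2 with all 48 libraries and 5 and 3 without a filter, and was 2 and 4 without preadipocyte replicate 1. Only 5 skeletal muscle and 5 cartilage or bone genes passed the filter. Acta1, Ttn and Neb were higher from preadipocytes at or under 3 CPM, Sox9 (1.20 ± 0.09) and Alpl were higher from preadipocytes, and Runx2 (−1.49 ± 0.09) and Phex were higher from MEFs. Without a filter 11 cartilage or bone genes were called higher from MEFs and 2 from preadipocytes.

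The interferon list turned on 1 library. Isg15, a ubiquitin-like protein induced by interferon, lay at 19.8, 3.87 and 2.73 CPM against 7.14, 5.23 and 5.77 CPM, and Oasl2 at 50.6, 8.58 and 8.96 CPM against 12.3, 11.4 and 11.2 CPM. Preadipocyte replicate 1 was above every other library for both. With all libraries, 3 of 29 genes were called higher from preadipocytes, Psmb9, Ifih1 and Gbp2, and 0 from MEFs by edgeR, with a median of 0.52. Without that replicate the median was −0.38, 3 genes were called higher from preadipocytes and 11 from MEFs, among them Ifit3 (−2.90) and Isg15 (−0.85), while Oas3 (0.64) replaced Gbp2 (0.52) among the 3. The Ifih1 call was also lost without any 1 of the MEF replicates, with values of 0.87 to 0.90.

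Of 15 genes for MHC class I and its peptide loading, 6 were higher from preadipocytes and 2 from MEFs. H2-K1, a classical class I gene, lay at 486, 418 and 413 CPM against 214, 207 and 205 CPM (1.07 ± 0.06). The H2-T genes, nonclassical members on chromosome 17, split. H2-T10 lay at 19.7, 15.2 and 14.6 CPM against 0.637, 0.82 and 0.956 CPM (4.34 ± 0.18), and H2-T22 at 4.13, 3.43 and 3.7 CPM against 44.3, 43.5 and 46.8 CPM (−3.58 ± 0.08). H2-T genes are near-identical copies between which read assignment is uncertain.

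Part of the difference between origins was already there before induction. At day 0, of 15726 genes tested, 2945 (18.7%) were higher in preadipocytes and 3133 (19.9%) in MEFs. Of the 2400 genes higher from preadipocytes at the last time point, 853 (35.5%, and 29% of the day 0 calls) were called the same way at day 0 and 281 the opposite way. Of the 2616 higher from MEFs, 1136 (43.4%, and 36.3% of the day 0 calls) were called the same way and 310 the opposite way. Imprinted growth genes were called higher from MEFs at day 0 for 19 of 27, with Igf2 at a log2 fold change of −8.07 and H19 at −8.50. Glycolysis was higher in preadipocytes at day 0 for 16 of 20 genes.

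OXPHOS genes mostly separated during differentiation. At day 0, 14 of 81 nuclear OXPHOS genes were called higher in preadipocytes, beside 76 of 82 at the last time point. The change in the difference between origins from day 0 to the last time point was tested as an interaction over 16604 genes, and it was called positive, towards preadipocytes, for 3107 (18.7%) and negative for 2853 (17.2%). The balance turned under other settings, to 2768 and 3146 with DESeq2 and 2610 and 3291 with library size alone. Leaving out any preadipocyte-derived library of the last time point turned it as well. The interaction was positive for 58 of the 82 OXPHOS genes, 20 of 26 fatty acid oxidation genes and 17 of 22 TCA cycle genes. It was negative for none of the OXPHOS or TCA cycle genes and for Cpt1a alone in fatty acid oxidation. For 12 of 25 general adipocyte genes it was positive, and for Dgat2 and Plin4 negative.

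Cholesterol synthesis and smooth muscle genes went the other way. At day 0, 20 of 23 cholesterol genes were higher in preadipocytes, and the interaction was negative for 19 of the 23. Smooth muscle genes were higher in preadipocytes at day 0 for 8 of 15, their sum lying at 5802 to 6726 CPM against 959 to 1415 CPM, and the interaction was negative for 11. Macrophage genes changed most as a list. Their sum at day 0 was 204 to 712 CPM in preadipocytes and 9996 to 12250 CPM in MEFs, 17 of 18 were called higher in MEFs, and the interaction was positive for 16, and at the last time point the ranges of the sum overlapped, as given above. The part of macrophage RNA in the levels of other genes at either stage was not tested.

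**Figure D4:**
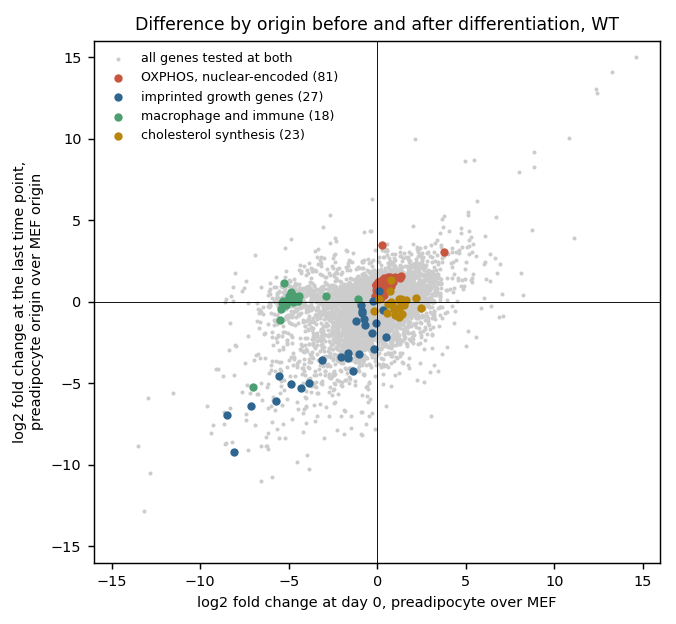
Log2 fold change (preadipocyte origin over MEF origin) of genes at the last time point plotted against that at day 0 in WT cells, with the listed groups in colour. OXPHOS genes have medians of 0.34 at day 0 and 1.05 at the last time point, and macrophage genes −4.93 and 0.12.

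Single genes with the smallest interaction p-values included Ghr, the growth hormone receptor, which lay at 66.6 to 71 CPM in preadipocytes and 276 to 295 CPM in MEFs at day 0 and at 312 to 328 CPM and 301 to 308 CPM at the last time point (interaction 2.10 ± 0.07 on the log2 scale, adjusted p = 1.28e-09). At the last time point itself Ghr did not differ by the calling rule. F3, tissue factor and a marker of an adipocyte progenitor subset, fell from 837 to 984 CPM in preadipocytes at day 0 to 103 to 119 CPM at day 9, against 167 to 193 CPM and 183 to 188 CPM in MEFs and their adipocytes (−3.11 ± 0.11).

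In DKO cells the same comparison gave 1800 genes (11.9%) higher from preadipocytes and 2337 (15.4%) higher from MEFs of 15159 tested. Hmgn2 was at 0 in all 6 DKO libraries, against 38.6 to 39.3 CPM of the library total in WT preadipocyte-derived cells and 42.4 to 48 in WT MEF-derived cells. Hmgn1 counts remained in DKO libraries, at 63.3 to 91.1 CPM of the library total against 73.3 to 110 in WT libraries. The study describes the loss as that of the deleted exons, so a count over the whole gene does not check it. Between the WT origins Hmgn1 had a log2 fold change of −0.35 ± 0.04 and Hmgn2 of −0.02 ± 0.06, neither called. Of the 2400 WT genes higher from preadipocytes 1464 (61%, and 81.3% of the DKO calls) were called the same way in DKO cells and 5 the opposite way, and of the 2616 higher from MEFs 1841 (70.4%, and 78.8% of the DKO calls) and 3. The WT and DKO libraries of an origin were separate samples in the same count table. In DKO cells 75 of 82 nuclear OXPHOS genes were higher from preadipocytes, with a median of 1.10 beside 1.05 in WT cells. General adipocyte genes were called higher from preadipocytes for 7 of 25 in DKO cells, with a median of 0.46 beside 0.72, and the difference between genotypes was called for none of these 25 by edgeR.

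A difference in the origin effect between genotypes was called for few genes. Of 15939 tested, the preadipocyte minus MEF difference was greater in DKO cells for 26 (0.163%) and smaller for 43 (0.270%), and 2110 had an unadjusted p under 0.05. Of these 69 calls, 10 lay on chromosome 17 and 10 on chromosome 14. These chromosomes held 732 and 539 of the 15406 genes tested between the WT origins. The cause of this placement was not tested. Without preadipocyte WT replicate 1 the 2 counts were 34 and 86, and without MEF WT replicate 1 they were 6 and 5. H2-T22 was at 4.13 CPM or less in WT cells from preadipocytes but level with MEF-derived cells in the DKO comparison, where its log2 fold change was 0.08 ± 0.08 (interaction 3.65 ± 0.11, adjusted p = 3.8e-09). H2-T10 went from 4.34 in WT to 0.03 ± 0.29 in DKO cells (interaction −4.32 ± 0.33), and H2-T23 from −2.02 to 0.29 ± 0.20 (2.30 ± 0.27). These genes lie at 36037128 to 36042747, 36115876 to 36121465 and 36029773 to 36032855 on chromosome 17 (mm10, minus strand). For each, WT preadipocyte-derived cells stood apart from all other groups. The H2-T22 mean was 3.67 CPM there, 43.6 in WT MEF-derived, 43.9 in DKO preadipocyte-derived and 41.6 in DKO MEF-derived cells. H2-T10 was at 16.1 CPM there and 0.738 to 0.781 elsewhere, and H2-T23 at 10 CPM and 35.8 to 43.6. Chrdl1, an antagonist of bone morphogenetic proteins, was at 24.2 to 27.7 CPM against 72.7 to 82.5 CPM in WT cells and at 35.7 to 47.9 CPM against 41 to 47.8 CPM in DKO cells (interaction 1.54 ± 0.15), a call lost with 1 spread over all 48 libraries (1.54, adjusted p = 0.93 by edgeR).

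**Figure D5:**
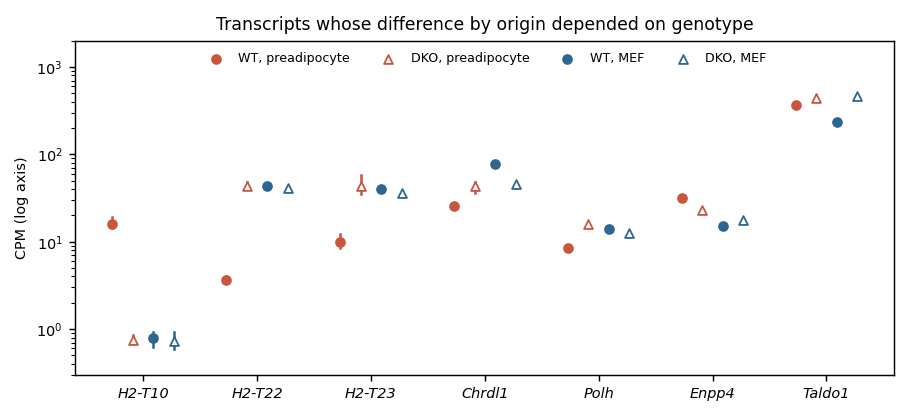
Level of 7 genes called for a difference between genotypes in the effect of origin (CPM, log scale; points are means of 3 libraries and bars span the lowest to the highest; circles WT, triangles DKO, red preadipocyte origin, blue MEF origin). Chrdl1 lies at 24.2 to 27.7 CPM against 72.7 to 82.5 CPM in WT cells and at 35.7 to 47.9 CPM against 41 to 47.8 CPM in DKO cells.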

How the data were processed

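The series holds 48 RNA-seq libraries, of which 6 made the main comparison. Expected counts per gene, not normalized, were deposited by the authors for 55450 genes (bcl2fastq 2.17, cutadapt 1.18, STAR 2.7.0f, RSEM 1.3.0 and mm10, per the submitters' processing notes). The strand setting of the counting is not given in the sources used here. The labels say poly(A) RNA and the methods name a total RNA kit. Counts were rounded, filtered with filterByExpr, scaled by TMM and tested with edgeR 4.0.16 (robust quasi-likelihood, Benjamini-Hochberg) in R 4.3.3, in separate fits for the last time point, day 0, DKO cells and the interactions of origin with stage and with genotype. Each fit has its own scaling, so CPM of a gene can differ slightly between fits. Alternatives used DESeq2 1.42.0 and limma 3.58.1. On simulated data for the comparison of origins, edgeR recovered 160 of 194 2-fold changes (82.5%) and 193 of 197 4-fold changes (98%). These were set among 15111 and 15114 genes. For the interactions with stage and with genotype, 60.4% and 57.6% of 2-fold changes were recovered. In the simulations all other genes had equal levels in every group, and changes went up and down alike. They therefore did not test the scaling between origins. Replicates differed by more than sampling noise (chi-square per degree of freedom 14.2 for preadipocyte-derived and 3.24 for MEF-derived libraries, 1 for sampling alone).

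The members and gene lists were chosen with earlier results of these data known. Genes named were preset genes, the 10 called genes with the smallest p and no overlap and the 10 with the largest fold change at a mean of at least 50 CPM in each direction, up to 4 called genes per list and direction with a mean of at least 5 CPM, and the 5 with the smallest p per interaction and direction. Not all of these are named in the text, and some further list members were named after their values were seen. At least-fold values take 3 counts in a library as the floor and cover counting error only.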

Additional observations from a re-analysis of the deposited data

Results flagged for a closer look

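The difference between origins changed from day 0 to the last time point, by the test of the interaction, for 3107 genes towards preadipocytes and 2853 towards MEFs. Among the named genes the log2 change of the difference was 4.25 for Dock10, 2.10 for Ghr, 3.84 for Psd4, 5.10 for Chrdl1 and 5.73 for Sema4d. In the other direction it was −3.68 for Avpr1a, a vasopressin receptor gene, −3.11 for F3, −2.81 for Plk2, −3.15 for Chst11 and −2.50 for Gdf11.

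The difference between origins was called as greater in DKO cells for 26 genes and smaller for 43. Of these calls, 10 lay on chromosome 17 and 10 on chromosome 14, and the cause was not tested. The log2 difference between genotypes was −4.32 for H2-T10, 3.65 for H2-T22, 2.30 for H2-T23, 1.54 for Chrdl1, 1.08 for Polh, −0.73 for Taldo1 and −0.67 for Enpp4. The calls of Chrdl1 (adjusted p = 0.93), Taldo1 (0.28) and Enpp4 (0.50) were lost in the edgeR fit over all 48 libraries, and that of Enpp4 also without MEF replicate 1 (adjusted p = 0.05003).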

How the results depend on the processing

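With no fold change threshold, 4787 genes were higher from preadipocytes and 4879 from MEFs, and at 2-fold or more the counts were 1279 and 1740. The counts of interactions with stage towards preadipocytes were 4700 and 1915 under the same settings. For the interaction with genotype, DESeq2 gave 71 genes greater and 149 smaller in DKO cells, 1 fit over all 48 libraries gave 7 and 7, 2-fold or more gave 17 greater, and library size alone gave 72 smaller. Leaving out in turn each of the 6 WT libraries of the last time point, and no day 0 or DKO library, gave 2332 to 2520 genes higher from preadipocytes and 2491 to 2872 from MEFs, 2475 to 3044 and 2690 to 3383 for the interaction with stage, and 6 to 34 and 5 to 86 for that with genotype. Without preadipocyte replicate 2 the last pair was 11 and 14, without replicate 3 it was 14 and 17, and without MEF replicates 2 and 3 it was 9 and 8, and 12 and 13. The balance of the interaction with stage, 3107 towards preadipocytes and 2853 towards MEFs, turned without preadipocyte replicate 1 (2528 and 3383), replicate 2 (2483 and 3130) or replicate 3 (2475 and 3160). It also turned to 2768 and 3146 with DESeq2, 2610 and 3291 with library size alone, 2629 and 2912 under quantile normalization, 2575 and 3241 without a filter, and 2252 and 2945 in the fit over all 48 libraries. In that last fit adipokine genes were called for 10 higher from preadipocytes and 4 from MEFs, and fatty acid and triglyceride synthesis genes for 4 and 1, while cholesterol synthesis genes gave 1 and 7 with library size alone. The direction changed for mt-Co1 under quantile normalization (−0.24), for Hmgn2 among the fits that each left out a library (−0.0506 to 0.0411), and for Ghr with library size alone (−0.16), quantile normalization (−0.16) and among the fits that each left out a library (−0.0052 to 0.0297), and neither Hmgn2 nor Ghr was called. The causes were not tested.

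With the replicate number as a block the counts were 2374 and 2583 for origin, 3058 and 2776 for the interaction with stage, and 19 and 29 for that with genotype. Deviations of same-numbered libraries correlated at 0.027, 0.017 and 0.003, which cannot show whether they shared more than a number. Outside chromosomes X and Y, an alternative chosen after seeing the data, 2319 and 2486 genes were called for origin. At the time points before the last, in other libraries, the counts were 2653 and 2923.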
